A study of Homo sapiens with 36 samples.

Results

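The genes described here are 10 secreted defence and acute phase genes, chosen by name and found in every deposited table among 60725 Ensembl genes. They are lactoferrin (LTF), lipocalin 2 (LCN2), haptoglobin (HP), serum amyloid A1 and A2 (SAA1, SAA2), pentraxin 3 (PTX3), secretory leukocyte peptidase inhibitor (SLPI), the serpins SERPINA1 and SERPINA3, and the polymeric immunoglobulin receptor (PIGR). Each matched exactly 1 gene. The list was drawn up with earlier results of these data in view, so all values of its members are given as a description.

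RNA was sequenced from 36 libraries of established human breast cell lines in 18 groups of 2. ER-Src cells are non-transformed MCF-10A mammary epithelial cells that carry v-Src joined to the hormone-binding part of the estrogen receptor. Tamoxifen (TAM) switches v-Src on and transforms the cells, and ethanol (ETH) is the vehicle. No TAM group lacks the v-Src fusion, so effects of tamoxifen itself and of v-Src cannot be told apart. Below, a change with Src means TAM against ETH with control siRNA. Under each treatment the cells received a control siRNA (Ctrli) or an siRNA against YAP (YAPi), TAZ (TAZi), STAT3 (STAT3i) or JUNB (JUNBi). MDA-MB-231, a triple-negative breast cancer line, was measured in 2 sets named in the titles. Set 1 held Ctrli, YAPi, TAZi, both siRNAs together (YAPi_TAZi) and siRNAs against the TEAD family (TEADi). The second set compared JUNBi and STAT3i with a Ctrli of its own and is called set 2. ER-Src cells were grown with epidermal growth factor, hydrocortisone, cholera toxin and insulin. The labels repeat this medium for MDA-MB-231, whereas the study's methods give that line DMEM with serum. The Src kinase inhibitor AZD0530 is named beside tamoxifen without saying which libraries received it, and the methods give a short and a long treatment after transfection without saying which was used for RNA. Neither source says whether the 2 replicates of these libraries came from separate cultures, so the errors below may be technical. Each line is a single model, and ER-Src cells express an introduced oncogene.

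The acute phase response is the change in secreted proteins that follows infection or injury. It is best known in the liver, where interleukin 6 acts through gp130 receptors and STAT3, and interleukin 1 acts through NF-kB and C/EBP factors. Epithelia of the breast, airway and gut make several of the same proteins locally, beside antimicrobial proteins and protease inhibitors that protect mucosal surfaces.

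Levels are TPM, which are scaled to gene length and to the library. Differences are DESeq2 log2 fold changes with their standard errors, computed from counts, and a gene was called where the adjusted p over all genes was under 0.01. The words rose and fell are used only of called genes.

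The ER-Src libraries held between 6419720 and 19161700 expected counts and set 2 between 7290499 and 18076158. In set 1 the controls held 13456784 and 13534560, but the 8 knockdown libraries held only 1411304 to 2784605. The share of counts in 7 abundant RNAs without a poly(A) tail was 9.43% to 11.7% for ER-Src, 8.71% to 11.8% for set 1 knockdowns, but 0.00278% to 0.00407% for their controls and at most 0.0112% in set 2. Knockdown and library type therefore cannot be told apart in set 1. The set 1 knockdown libraries also differed by replicate. Gene length minus effective length, which RSEM sets from the reads, was 48.0 bases in each replicate 1 and 74.6 in each replicate 2. In ER-Src it was 49.0 with STAT3i and JUNBi and 49.5 with Ctrli, YAPi and TAZi. In every comparison with Ctrli the targeted RNA was lower in both knockdown libraries than in both controls. All 6 epithelial markers examined were present in ER-Src, with a summed level of 2159 to 4365 TPM. KRT5 and CDH1, a basal keratin and E-cadherin, were listed at 0 in set 2, where KRT18 was the main keratin and the mesenchymal markers summed to 833 to 1646 TPM. Of 5 hepatocyte markers none reached 1 TPM in ER-Src (sum at most 0.35). Of 6 blood cell markers 2 reached 1 TPM in ER-Src, with CD68 the highest, and their sum was 8.06 to 27.7 TPM in TAM and 5.69 to 14.6 TPM in ETH, with ELANE at 0. Their part in the results was not tested.

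RefSeq promoter windows (GRCh38.p14) were found for 6 of the 10 genes, in 9 windows, and none for HP, SAA1, SAA2 and SLPI. They are shown because the study concerns factors with known binding motifs. In the 250 bases upstream of each start site, 5 motifs were searched on both strands: STAT (TTCNNNGAA, in 6.57% of 35114 promoters), AP-1 (TGANTCA, 6.57%), TEAD (GGAATG, 11.9%), C/EBP (TTNNGCAA, 9.05%) and NF-kB (GGGA-NNNN-CC, 22.6%). Each sequence below runs from 5′ to 3′ and ends just before the start site, and capitals mark the matches.
LCN2, plus strand, chr9:128149203-128149452: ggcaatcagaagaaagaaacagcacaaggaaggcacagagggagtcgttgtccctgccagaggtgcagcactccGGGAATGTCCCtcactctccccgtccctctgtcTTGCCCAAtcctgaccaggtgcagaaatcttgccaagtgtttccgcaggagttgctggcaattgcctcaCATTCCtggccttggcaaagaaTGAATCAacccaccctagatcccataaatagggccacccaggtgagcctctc
PTX3, plus strand, chr3:157436600-157436849: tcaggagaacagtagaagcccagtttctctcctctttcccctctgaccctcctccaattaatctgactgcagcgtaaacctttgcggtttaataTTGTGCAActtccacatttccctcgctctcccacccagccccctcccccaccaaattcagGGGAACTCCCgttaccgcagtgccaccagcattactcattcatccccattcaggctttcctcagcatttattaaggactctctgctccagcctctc
SERPINA3, plus strand, chr14:94612141-94612390: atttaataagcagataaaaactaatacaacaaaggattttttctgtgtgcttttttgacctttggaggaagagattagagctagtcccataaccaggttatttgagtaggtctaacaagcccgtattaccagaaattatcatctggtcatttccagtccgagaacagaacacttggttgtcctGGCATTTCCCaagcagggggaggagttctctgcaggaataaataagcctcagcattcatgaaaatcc
LTF, minus strand, upstream of the start at 46464905, chr3:46464906-46465155: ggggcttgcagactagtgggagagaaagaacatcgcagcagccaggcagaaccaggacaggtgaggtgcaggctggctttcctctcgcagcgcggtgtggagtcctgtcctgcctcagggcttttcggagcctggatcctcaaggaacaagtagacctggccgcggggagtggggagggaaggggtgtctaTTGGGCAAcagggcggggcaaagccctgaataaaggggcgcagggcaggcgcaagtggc
LTF, minus strand, upstream of the start at 46463654, chr3:46463655-46463904: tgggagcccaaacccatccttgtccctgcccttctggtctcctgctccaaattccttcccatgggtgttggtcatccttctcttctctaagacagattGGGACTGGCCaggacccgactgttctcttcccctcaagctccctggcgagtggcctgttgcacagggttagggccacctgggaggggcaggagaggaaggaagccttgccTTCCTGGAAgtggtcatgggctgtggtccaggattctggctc
LCN2 held matches for 4 of the 5 motifs. Its NF-kB motif matched on both strands in overlapping positions (GGGAATGTCC and GGAATGTCCC) that also overlap a TEAD match, followed by a C/EBP match, a further TEAD match and an AP-1 match. PTX3 held a C/EBP and an NF-kB match, and SERPINA3 an NF-kB match. LTF has 3 annotated starts, of which the outermost held a TEAD match and the inner ones a C/EBP match and an NF-kB with a STAT match, the only STAT match among these windows. The PIGR window and both SERPINA1 windows held none. A match describes letters in the window and does not show that a factor binds.

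Src activation with control siRNA was compared first, to ask how these genes differ between transformed and non-transformed cells. Of the 10 genes, 8 rose in TAM and none fell, where 4.62% of the 15724 genes tested rose and 1.59% fell. Over the 8 with a mean count of at least 10 the median log2 fold change was 3.91, and over all genes it was -0.02. Those 8 are the called genes, as LCN2 and PIGR had mean counts of 9.86 and 0.605. LTF (2 counts in ETH, 61 in TAM) and HP (7 and 198) passed this cut only through TAM. The median is therefore partly set by that selection. Only LCN2 and PIGR were not called.

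Lactoferrin, an iron-binding antimicrobial protein of milk and of neutrophil granules (chromosome 3, 46435645 to 46485234, minus strand), was close to undetected in ETH. Its level was 0.08 and 0 TPM in ETH Ctrli and 1.01 and 0.81 TPM in TAM Ctrli, from 2 and 61 counts summed over the groups, a 41.6-fold difference per total count (exact 95% interval 11 to 352, counting error only). It was called with all 4 libraries and not when any 1 of them was left out (log2 4.49 to 7.76). In bulk RNA, more cells that express a gene and more RNA per cell cannot be told apart. LTF rose further with JUNBi and TAZi in TAM. JUNBi libraries stood at 27.8 and 24.3 TPM and TAZi libraries at 15.6 and 16.1 TPM, well apart from the controls, with log2 fold changes of 5.14 ± 0.25 and 4.50 ± 0.25. STAT3i libraries had 0.14 and 0.01 TPM, from 9 counts in all, and LTF fell by 3.66 ± 0.91 on the log2 scale, a call that was also lost without any 1 library (-5.68 to -2.87). Under ETH no LTF library in any siRNA group passed 0.17 TPM, so the high levels were seen with TAM in this line. YAPi in TAM gave 13.3 and 1.47 TPM, both above the controls but 9.03-fold apart, and was not called (3.54 ± 1.34). In MDA-MB-231 the highest library had 1.74 TPM, from 3 counts.

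LCN2, which binds bacterial iron carriers (chromosome 9, 128149071 to 128153453, plus strand), was called with YAPi and not with Src. It had 0.24 and 0.48 TPM in ETH Ctrli and 0.96 and 0.73 TPM in TAM Ctrli, a difference that was not called (1.72 ± 1.11). YAPi gave 4.46 and 3.32 TPM in ETH and 14.3 and 3.93 TPM in TAM, above every control library. LCN2 rose with YAPi by 3.67 ± 0.68 in ETH and 3.34 ± 0.59 in TAM. The TAM call was lost without either control library or YAPi replicate 1 (2.23 to 3.99), and the ETH call without control replicate 1 or YAPi replicate 1 (3.05 to 4.65). TAZi in TAM (2.8 and 4.59 TPM) and JUNBi in TAM (3.48 and 2.78 TPM) also lay above the TAM controls, but neither was called (1.96 ± 0.59 and 1.52 ± 0.64). In MDA-MB-231 the 4 control libraries had 91.1 to 130.5 TPM, but they differ from ER-Src in the share of RNAs without a poly(A) tail. The 8 set 1 knockdown libraries, whose share is like that of ER-Src, had 6.16 to 20.9 TPM. Line and library type therefore cannot be told apart in this comparison of levels.

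Haptoglobin, the plasma protein that captures free hemoglobin (chromosome 16, 72054505 to 72061055, plus strand), rose with Src from a low level. It had 0.14 and 0.18 TPM in ETH Ctrli and 5.23 and 3.62 TPM in TAM Ctrli, a log2 fold change of 5.32 ± 0.69. TAZi in TAM gave 99.1 and 78.7 TPM, the highest level of any group. HP rose there by 4.23 ± 0.19, and by 1.90 ± 0.25 with JUNBi (17 and 17.2 TPM). STAT3i left 0.63 and 0.19 TPM, and HP fell by 4.36 ± 0.55. In ETH no library passed 0.21 TPM. The effect of TAZi was larger in TAM than in ETH by 5.17 ± 1.03, where 1.6% of the 4424 genes with an adjusted p were called. HP in ETH TAZi rested on 3 counts, however, against 6011 in TAM TAZi. With edgeR, HP was not called in this term. Its neighbour HPR, a near copy 2093 bases away that shares 11.2% of the 50-base windows of HP, had at most 6.98 counts in any library, so few reads were assigned to the copy. YAPi in TAM again gave unequal libraries, 26.9 and 3.94 TPM, and was not called (1.75 ± 1.13). In MDA-MB-231 no library passed 0.23 TPM.

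**Figure D1:**
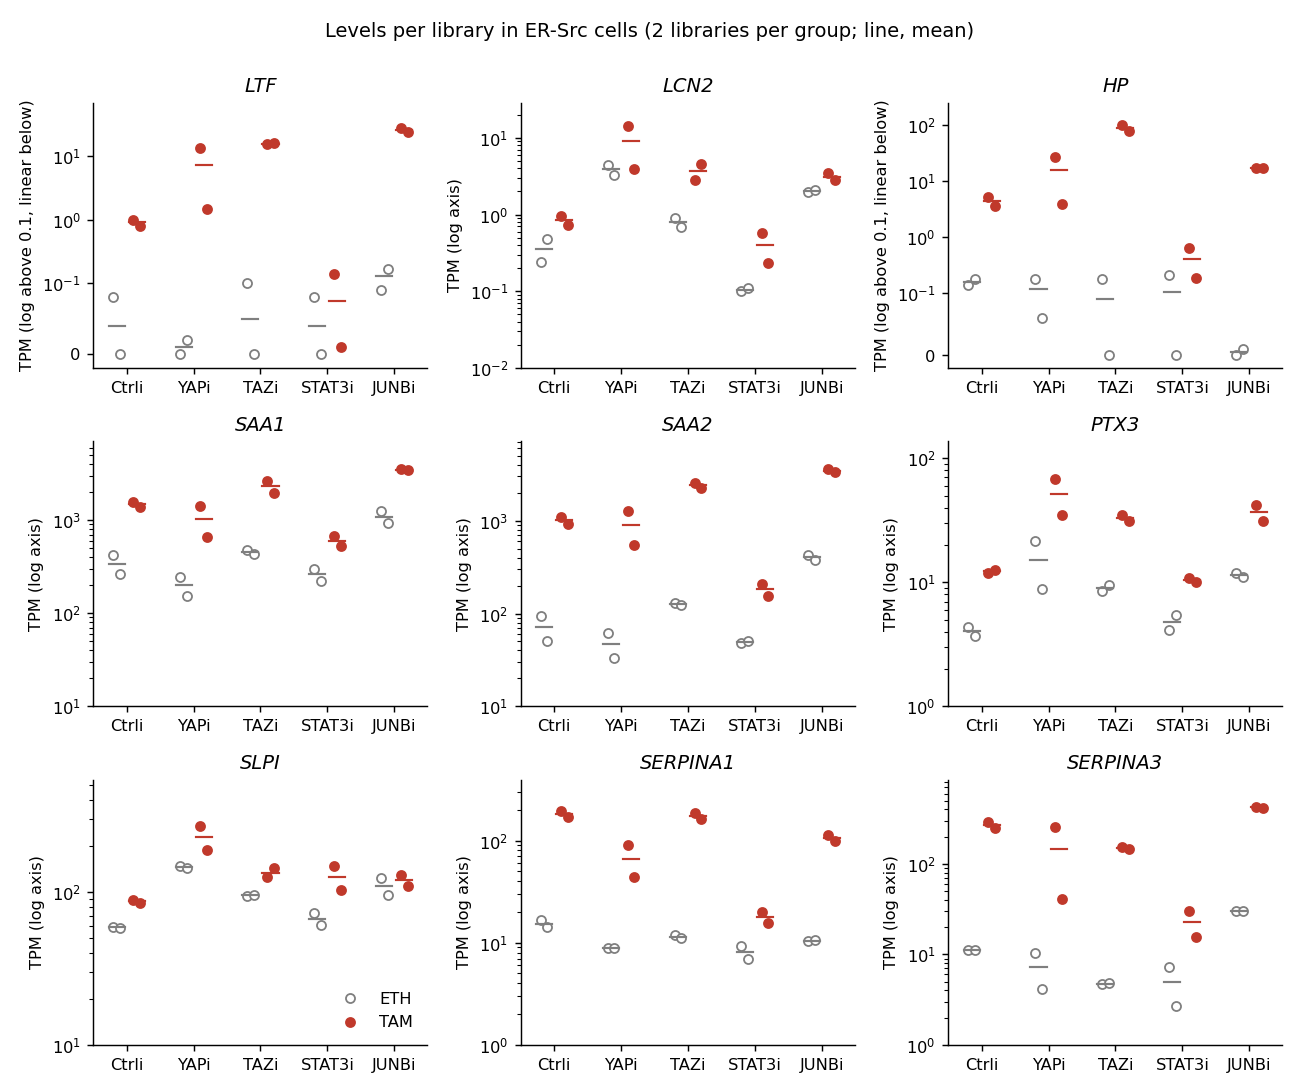
Levels in ER-Src cells of 9 of the genes, in TPM on log axes (linear below 0.1 TPM for LTF and HP), by siRNA; open grey points are ETH libraries, filled red points TAM libraries, and lines the mean of 2. LTF and HP were under 0.25 TPM in every ETH library and reached 27.8 and 99.1 TPM in TAM, whereas SLPI stayed between 57.8 and 270.3 TPM.

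Serum amyloid A1 and A2 are lipoprotein-associated proteins that rise steeply in plasma during inflammation. Their genes lie 17592 bases apart on chromosome 11 in opposite orientation (SAA1 18266260 to 18269977, SAA2 18239223 to 18248668). They share many 50-base windows, 34.2% of those of SAA1 and 17.8% of those of SAA2, so the division of reads between them is uncertain. SAA1 was the most abundant of the 10 genes in resting cells, with 419 and 264 TPM in ETH Ctrli, and had 1571 and 1382 TPM in TAM Ctrli. SAA2 went from 93.8 and 50 TPM to 1108 and 930.1 TPM. The log2 fold changes were 2.32 ± 0.13 and 3.90 ± 0.31. JUNBi gave the highest levels, 3497 and 3455 TPM for SAA1 and 3572 and 3307 TPM for SAA2 in TAM, and both genes rose with JUNBi in TAM and in ETH (SAA1 by 1.04 ± 0.12 and 1.48 ± 0.23, SAA2 by 1.55 ± 0.11 and 2.17 ± 0.26). TAZi in TAM raised SAA2 to 2576 and 2275 TPM (1.11 ± 0.11), while SAA1 at 2649 and 1951 TPM was not called (0.51 ± 0.27). STAT3i in TAM left 672 and 525 TPM of SAA1 and 209 and 155 TPM of SAA2, and the genes fell by 1.61 ± 0.13 and 2.79 ± 0.14. Even so, SAA1 with STAT3i stood above its ETH control level in TAM.

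The share of SAA2 in the summed TPM of both genes moved with treatment. It was 18.3% and 15.9% in ETH Ctrli and 41.4% and 40.2% in TAM Ctrli. It was lower with STAT3i in TAM, at 23.7% and 22.7%. It was higher with YAPi (46.9% and 45.8%), TAZi (49.3% and 53.8%) and JUNBi (50.5% and 48.9%) in TAM. None of these overlapped the TAM controls. JUNBi in ETH, whose sum of 1670 and 1307 TPM exceeded that of STAT3i in TAM (881 and 679.6 TPM), had a share of 25.8% and 28.6%. In MDA-MB-231 set 2 the sum (1803 to 2861 TPM) overlapped that of TAM Ctrli, yet the share was 16.1% to 27.5% over the 6 libraries, and in set 1 it was 27.3% to 42.2%. Because part of the sequence is shared, these are shares of RSEM estimates.

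**Figure D2:**
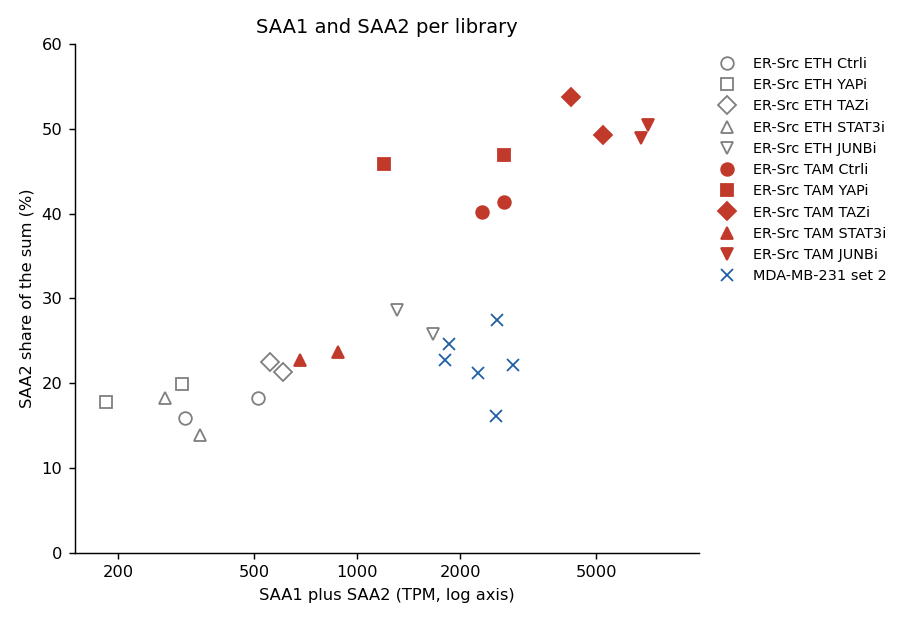
Sum of SAA1 and SAA2 in TPM (log axis) against the share of SAA2 in percent, 1 point per library; colours and fills mark treatment, shapes the siRNA, and crosses MDA-MB-231 set 2. TAM libraries other than STAT3i lie above 40%, whereas ETH, STAT3i in TAM and MDA-MB-231 set 2 libraries lie below 30%.

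PTX3, a soluble pattern recognition protein made outside the liver (chromosome 3, 157436850 to 157443633, plus strand), had 4.37 and 3.72 TPM in ETH Ctrli and 12 and 12.6 TPM in TAM Ctrli, and rose by 1.80 ± 0.20. It did not pass the threshold with STAT3i in TAM (10.9 and 9.97 TPM, -0.54 ± 0.18). It rose with the other 3 siRNAs in both treatments. YAPi gave 68.4 and 35.1 TPM in TAM (2.03 ± 0.41) and 21.4 and 8.8 TPM in ETH (1.84 ± 0.53). TAZi gave 34.6 and 31.2 TPM in TAM (1.27 ± 0.15) and JUNBi 42.4 and 31.5 TPM (1.36 ± 0.15). In ETH the log2 fold changes were 1.02 ± 0.22 and 1.30 ± 0.29. The PTX3 call was lost without either control library for YAPi in TAM (1.58 to 2.40) and, in ETH, for YAPi (1.19 to 2.29) and JUNBi (1.21 to 1.39), and without any 1 library for TAZi in ETH (0.96 to 1.08).

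SLPI, an inhibitor of neutrophil elastase at epithelial surfaces (chromosome 20, 45252239 to 45254564, minus strand), was present in all ER-Src groups. It had 59.4 and 57.8 TPM in ETH Ctrli and 89 and 85.2 TPM in TAM Ctrli (0.75 ± 0.14), a call lost without replicate 1 of either group (0.65 to 0.85). YAPi gave the highest levels, 147 and 144 TPM in ETH and 270.3 and 187 TPM in TAM, and SLPI rose by 1.29 ± 0.14 and 1.36 ± 0.15. TAZi raised it by 0.56 ± 0.14 in ETH and 0.48 ± 0.12 in TAM, and both calls were lost without any 1 of their 4 libraries (0.46 to 0.65 and 0.43 to 0.53). With STAT3i in TAM its libraries had 148 and 103 TPM, above both controls, but the count-based value was 0.22 ± 0.17 and was not called.

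SERPINA1, the main inhibitor of neutrophil elastase in plasma (chromosome 14, 94376747 to 94390693, minus strand), and SERPINA3, an inhibitor of chymotrypsin-like proteases 221691 bases away (94612384 to 94624055, plus strand), shared no 50-base window. SERPINA1 had 16.6 and 14.2 TPM in ETH Ctrli and 196 and 169 TPM in TAM Ctrli (3.92 ± 0.11). SERPINA3 had 11.3 TPM in both ETH controls and 293 and 249 TPM in TAM Ctrli (5.05 ± 0.11). With STAT3i in TAM, SERPINA1 libraries had 19.9 and 15.7 TPM and SERPINA3 libraries 30.3 and 15.7 TPM, and the genes fell (-3.79 ± 0.15 and -4.09 ± 0.42). SERPINA1 was thus near its level in ETH Ctrli. Mean TPM with STAT3i was still 2.19-fold higher in TAM than in ETH for SERPINA1 and 4.63-fold for SERPINA3. For the other siRNAs the serpins parted. SERPINA1 fell with JUNBi in TAM (114 and 98.8 TPM, -1.0 ± 0.12), whereas SERPINA3 rose (424 and 420.1 TPM, 0.44 ± 0.12). SERPINA3 fell with TAZi in TAM (155 and 145 TPM, -0.94 ± 0.10) and in ETH (-1.08 ± 0.24), whereas SERPINA1 was not called with TAZi (-0.19 ± 0.11 and -0.34 ± 0.19). SERPINA1 fell with YAPi in TAM (89.7 and 43.7 TPM, -1.36 ± 0.38) and in ETH (-0.66 ± 0.19). No siRNA raised SERPINA1 in ER-Src. The SERPINA3 call with JUNBi in TAM was lost without either control library or without JUNBi replicate 2 (0.28 to 0.59). In ETH the calls of SERPINA3 with TAZi (-1.15 to -1.03) and SERPINA1 with YAPi (-0.68 to -0.62) were lost without any 1 library, and with JUNBi those of SERPINA3 (1.33 to 1.70) without either control and SAA1 (1.27 to 1.71) without control replicate 2.

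PIGR, which carries immunoglobulin A across epithelia (chromosome 1, 206928522 to 206946466, minus strand), reached no more than 4 counts in an ER-Src library and 6 in one of MDA-MB-231. No fold is given, and a difference between groups was not detectable at this depth.

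**Figure D3:**
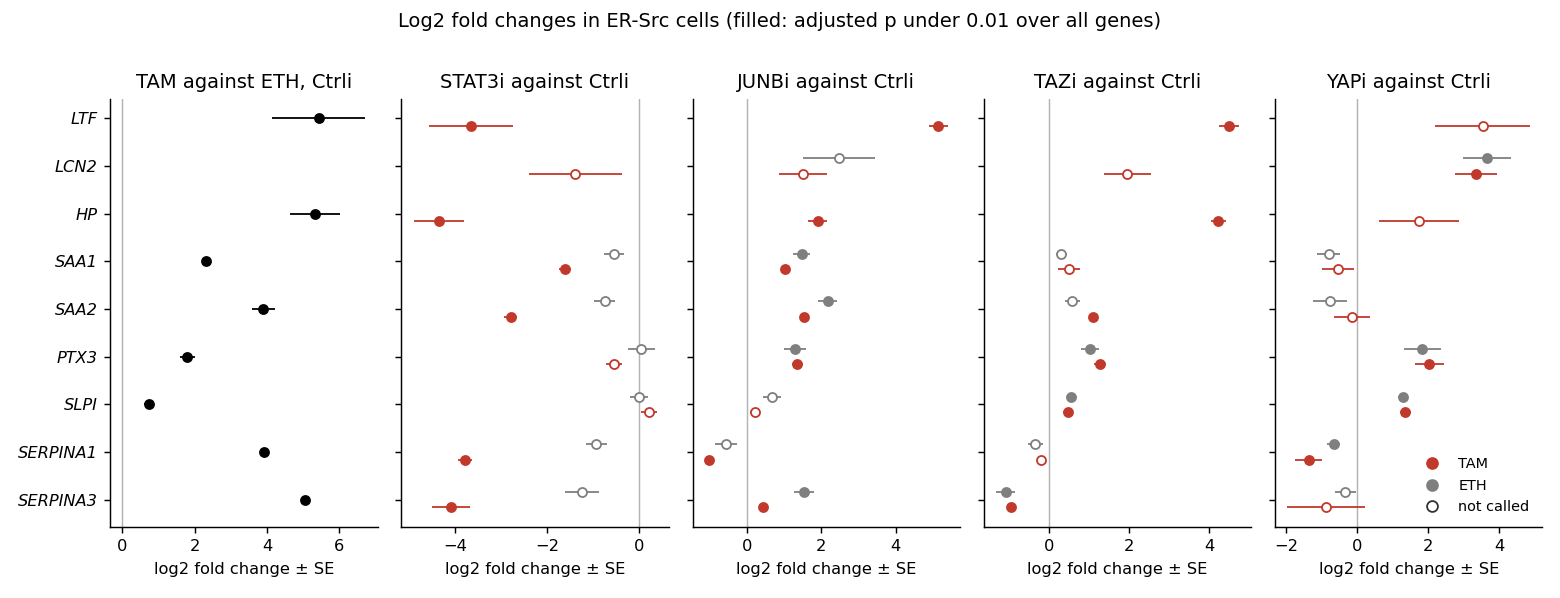
DESeq2 log2 fold changes (bars, SE) in ER-Src for TAM against ETH and for each siRNA against Ctrli of the same treatment; red is TAM, grey ETH, filled points are called, and values with a mean count under 10 are not drawn. STAT3i in TAM lies left of 0 for LTF, HP, SAA1, SAA2 and both serpins, while JUNBi lies right of 0 for all but SERPINA1.

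Counted by siRNA in TAM, STAT3i lowered 6 of the 10 genes and raised 0 (background 4.88% lower and 3.34% higher of 14194). JUNBi raised 6 and lowered 1 (2.84% higher, 4.06% lower). TAZi raised LTF, HP, SAA2, PTX3 and SLPI and lowered SERPINA3 (1.75% higher, 1.68% lower). YAPi raised SLPI, LCN2 and PTX3 and lowered SERPINA1 (5.27% higher, 5.4% lower). The 4 comparisons share the TAM control libraries, from which the STAT3i and JUNBi libraries differed in the length measure given above, and the part of that difference was not tested. In ETH, YAPi raised the same 3 genes and lowered SERPINA1 (5.11% and 6.47%), TAZi raised SLPI and PTX3 and lowered SERPINA3 (2.6% and 2.64%), and JUNBi raised SAA1, SAA2, PTX3 and SERPINA3 (1.19% higher, 1.61% lower). The deviations of same-numbered libraries correlated in both (r = 0.218 and 0.432), and TAZi in ETH called 0 of the 10 once replicate was added to the fit as a block. With edgeR JUNBi in ETH called 0 of the 10, and 1 gene in all against 421. STAT3i called 0 of the 10 in ETH with DESeq2 and 0 with edgeR (background 0.189% of 19578 genes called). An unadjusted DESeq2 p under 0.05 was seen for 4 of the 10 and for 613 genes in all. The 4 were lower, SAA1 by -0.54 ± 0.21, SAA2 by -0.74 ± 0.23, SERPINA1 by -0.93 ± 0.23 and SERPINA3 by -1.23 ± 0.37. The difference in the effect of STAT3i between TAM and ETH was called with DESeq2 for SAA1, SAA2, SERPINA1 and SERPINA3 (interaction terms -1.09 ± 0.26, -2.06 ± 0.27, -2.87 ± 0.23 and -2.88 ± 0.75, where 1.34% of all genes were called in this term). With edgeR only SERPINA1 was called. JUNBi raised SERPINA3 less in TAM than in ETH, by -1.12 ± 0.26 (0.288% of all genes called). For YAPi 0 of the 10 interaction terms were called by DESeq2 or edgeR (0.498% of 15650 genes called with DESeq2). An unadjusted DESeq2 p under 0.05 was seen for 1 of the 10 and for 835 genes in all.

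The 2 YAPi replicates in TAM lay far apart. All 9 genes with a mean of at least 1 TPM were higher in replicate 1 than in replicate 2, by 9.03-fold for LTF, 6.84-fold for HP, 6.23-fold for SERPINA3 and 1.44-fold for SLPI, with a median of 2.29-fold. Over 11559 genes the median ratio was 1.12, and 1.95% of genes were over 2-fold. Replicate 1 was also the higher for most of these genes in most other groups, though by less. This held for 6 of 6 with STAT3i, 8 of 9 with JUNBi, 6 of 9 with TAZi and 6 of 7 with Ctrli in TAM (medians 1.11 to 1.32), and for 6 of 7 with YAPi in ETH (median 1.62, 2 of them over 2-fold). The other ETH groups had 5 of 6 with Ctrli, 4 of 6 with STAT3i, 4 of 7 with JUNBi and 3 of 6 with TAZi (medians 1 to 1.26). With JUNBi the median over all genes was 1.25 in TAM and 1.26 in ETH, above that of these genes (1.14 and 1.07). With Ctrli in ETH it was 1.18 against 1.17, and in the remaining groups 0.96 to 1.13. The YAP1 level was 5.74 TPM or less in both YAPi libraries. Without replicate 2, LTF and HP were called higher with YAPi (4.37 and 2.53), and without replicate 1, SAA1, SAA2 and SERPINA3 were called lower (-1.11, -0.74 and -2.60). Without either TAM control library only SLPI was called with YAPi. What sets these libraries apart was not tested.

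Over the 10 ER-Src group means of log2(TPM + 1), the genes followed overlapping patterns. SAA1, SAA2, SERPINA1 and SERPINA3 had Pearson r of 0.84 to 0.99 with each other, LTF and HP 0.93, and LCN2, PTX3 and SLPI 0.86 to 0.90. Values across these sets were often as high, with 0.89 for HP and SERPINA1, 0.86 for HP and SAA2, 0.87 for LTF and SAA2 and 0.85 for LTF and PTX3. The lowest was 0.31, for SLPI with SERPINA1. The points share libraries and siRNA groups. Genes were compared where a group mean reached 5 TPM. LCN2 reached it only with YAPi in TAM (mean 9.12 TPM, libraries 14.3 and 3.93 TPM). LTF and HP reached it only with YAPi, TAZi or JUNBi in TAM. The r values of these genes therefore depend on those groups, and the YAPi libraries among them lay far apart. Among 8266 genes the closest to LTF were SLC39A8 (r = 0.96), RARRES1 (0.96) and SLC39A14 (0.94), of which the SLC39 genes encode metal ion transporters that can take up zinc, manganese and iron. SLC39A8 (0.97), the secreted lectin CHI3L1 (0.97) and MIR3945HG (0.96) were closest to HP. The closest to SERPINA1 were the metallothionein MT1X, the STAT3 feedback inhibitor SOCS3 and PGS1 (each 0.98), and to SERPINA3 CEMIP2 (0.98), GADD45B (0.97) and the oncostatin M receptor OSMR (0.96). For PTX3 they were SVIL (0.96), IL32 (0.95) and the interleukin 1 receptor IL1R1 (0.95). For SLPI they were the desmosomal cadherin DSG3 (0.98), GBP2 (0.95) and MFSD12 (0.93), and for LCN2 VPS37A (0.94), SECTM1 (0.94) and the NF-kB cofactor NFKBIZ (0.93). For SAA1 and SAA2 they were each other (0.99) and the ribosomal RNA pseudogenes RNA5SP333 and RNA5SP334 (0.98 to 0.99), which are 118 bases long and annotated inside SAA2 and SAA1 on the same strand, so their reads cannot be told apart from those of the host genes.

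A list of 30 other acute phase and mucosal defence genes was examined beside these, together with 16 receptors and transcription regulators of the response and 13 receptors and partners of the proteins. Of the 30, only 9 had enough counts for an adjusted p in the Src comparison, and 7 rose (4.62% of all genes did). Having an adjusted p depends on the mean count over both groups. Genes near 0 in ETH can thus enter through TAM alone, so the 7 of 9 is partly set by that selection. CHI3L1, a lectin of inflamed tissue, went from 0.315 ± 0.00707 to 30.1 ± 1.98 TPM (mean ± SD, n = 2), with a log2 fold change of 6.76 ± 0.35 and a DESeq2 adjusted p of 1.0e-79. PI3, the elastase inhibitor elafin, had 16 ± 2.56 and 25.9 ± 0.849 TPM (0.89 ± 0.22, DESeq2 adjusted p = 0.00145). LGALS3BP, MUC1, CHI3L2 and SAA4 also rose. With STAT3i in TAM, 5 of the list fell and 1 rose (4.88% and 3.34% of all genes). Among those that fell were CHI3L1 (-4.76 ± 0.58, DESeq2 adjusted p = 1.4e-14) and LGALS3BP (-0.56 ± 0.13, DESeq2 adjusted p = 0.000691), and the gene that rose was the antimicrobial ribonuclease RNASE7 (2.47 ± 0.65, DESeq2 adjusted p = 0.00251). TAZi in TAM raised CHI3L1, CHI3L2 and LBP, the lipopolysaccharide binding protein, CHI3L1 to 172 ± 8 TPM, where 1.75% of all genes rose. JUNBi raised CHI3L2 and LBP (2.84% of all genes), and CHI3L1 was not called with it (0.13 ± 0.16, DESeq2 adjusted p = 0.672). YAPi raised PI3 to 198 ± 96 TPM (2.89 ± 0.44, DESeq2 adjusted p = 2.2e-09), CHI3L2 and RNASE7, where 5.27% of all genes rose. The median log2 fold changes of the members with a mean count of at least 10 were 2.04 for Src, 1.05 for YAPi, 1.37 for TAZi, -2.00 for STAT3i and 0.51 for JUNBi. A gene low in 1 group counts here only where the other group is high, so these medians carry the same limit. Over all genes the median for Src was -0.02.

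Of the 16 receptors and regulators, 15 had an adjusted p and 8 rose with Src, where 4.62% of all genes rose. SOCS3 went from 0.96 ± 0.0566 to 41.7 ± 2.1 TPM (5.77 ± 0.17, DESeq2 adjusted p = 1.3e-235). STAT3 itself rose by 1.12 ± 0.11, the receptor subunit OSMR by 1.51 ± 0.15 and IL6ST, which encodes gp130, by 0.46 ± 0.11 (DESeq2 adjusted p = 2.1e-21, 1.2e-20 and 0.000928). On the TPM scale the IL6ST libraries overlapped, at 20.9 and 27 TPM in ETH Ctrli and 25.2 and 26.9 TPM in TAM Ctrli. CEBPB and CEBPD, the C/EBP factors of the acute phase response, rose close to the threshold (DESeq2 adjusted p = 0.00862 and 0.00951). With STAT3i in TAM, 6 fell, where 4.88% of all genes fell. Among the 6 was STAT3, the target of the siRNA. The others included SOCS3 (-3.74 ± 0.16), OSMR (-1.03 ± 0.15) and CEBPD (-1.51 ± 0.20), with DESeq2 adjusted p of 1.5e-119, 5.3e-10 and 2.5e-12. IL6ST was not called (0.13 ± 0.13), although its STAT3i libraries stood at 36.3 and 41 TPM, above both TAM controls. TAZi raised IL6ST and IL1R1, JUNBi raised IL6ST and LIFR (1.75% and 2.84% of all genes rose), and YAPi raised IL6ST, JAK1, IL1R1 and IL6R and lowered SOCS3 (-0.51 ± 0.12, DESeq2 adjusted p = 0.000392), where 5.27% of all genes rose and 5.4% fell. Of the 13 receptors and partners only LRP1 and SCARB1, which bind lactoferrin and lipoproteins, had enough counts for an adjusted p. Neither was called with DESeq2 in the 5 comparisons in TAM, where 1.59% to 5.4% of all genes were called in a given direction. With 2 genes this count says little about the list.

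In MDA-MB-231 set 2, whose libraries had like shares of the RNAs without a poly(A) tail, 1 of the 10 genes was called. SAA1 had 1401 and 2139.8 TPM in the controls, 2228 and 1862 with JUNBi and 1782 and 1394 with STAT3i, and the groups overlapped. LCN2 had 91.1 and 101 TPM in the controls, 94.6 and 99.2 with JUNBi and 113 and 109 with STAT3i. SAA2 had 456 and 409.6 TPM, 633 and 706 with JUNBi and 480.4 and 409 with STAT3i, and SERPINA1 88 and 74.3 TPM, 119 and 144 with JUNBi and 79.1 and 93.4 with STAT3i. Both lay higher with JUNBi without overlap, and neither was called (0.28 ± 0.18 and 0.40 ± 0.18). Only PTX3 was called, higher with JUNBi (12.9 and 4.76 TPM in the controls, 21.8 and 33.9 TPM with JUNBi, 1.40 ± 0.37), where 0.251% of all genes were higher and 3.16% lower. Without control replicate 4 or either JUNBi library it was not called (0.92 to 2.11 over the libraries left out). With STAT3i only SAA1, SAA2 and SERPINA1 had an adjusted p and 0 of these 3 were called, with 0 of the 10 at an unadjusted p under 0.05 and 0 by edgeR (0.497% of the 2013 genes with an adjusted p called). STAT3 itself was at 2.75 to 3.07 TPM in those libraries against 15.4 to 20.8 TPM in the controls. HP was at 0 in all 6 libraries, and LTF, SLPI and SERPINA3 had at most 1.7, 0.21 and 1.35 TPM.

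The effects of the same siRNAs differed between MDA-MB-231 set 2 and ER-Src in TAM for several genes. With STAT3i the change in set 2 was higher than that in ER-Src by 3.66 ± 0.24 for SERPINA1 and 2.58 ± 0.27 for SAA2 (1.43% of all genes called). With JUNBi it was higher by 1.36 ± 0.21 for SERPINA1 and lower for SAA2 (-1.31 ± 0.21) and LCN2 (-1.89 ± 0.47), where 0.959% of all genes were called. Line and library type cannot be told apart in these terms.

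In set 1 the values are given with the limit above. SAA1 had 696 and 757 TPM in the controls and 55.5 to 131 TPM in the 8 knockdown libraries. SAA2 had 356 and 364 TPM against 35.5 to 81.1 TPM, LCN2 130.5 and 127 TPM against 6.16 to 20.9 TPM, and PTX3 136 and 127 TPM against 3.46 to 31.2 TPM. SAA1, SAA2, LCN2 and PTX3 fell with all 4 knockdowns, where 12.1%, 16.8%, 18.2% and 14% of all genes fell with YAPi, TAZi, YAPi_TAZi and TEADi and 12.4%, 16%, 17.3% and 13.5% rose, with log2 fold changes from -0.93 ± 0.18 for SAA2 with YAPi to -3.64 ± 0.24 for PTX3 with YAPi_TAZi. The calls of SAA2 with YAPi and LCN2 with TEADi were lost without either control, and that of PTX3 with TEADi without control replicate 1. Basal keratins moved with these libraries. KRT5, abundant in ER-Src, had 5.99 to 11.5 TPM in replicate 1 of the 4 knockdowns, and was at 0 in every replicate 2 and in both controls. KRT17 had 3.14 to 6.25 TPM in replicate 1 and at most 0.71 TPM in the others. The calls of SAA1, SAA2, LCN2 and PTX3 were kept without replicate 1 of the knockdown, and the part of the keratin RNA in the other results was not tested. SLPI had 139 counts in the controls and 2 or fewer in each knockdown group, and it fell with TAZi and TEADi. Per total count the controls were 23.2-fold above TAZi (exact 95% interval 4.1 to 924) and at least 6.73-fold above TEADi, which had 0 counts (set at 3 over the group), and both calls were lost without any 1 library. SERPINA1 was called higher with YAPi_TAZi (1.19 ± 0.11) and TEADi (0.91 ± 0.18) from counts, where 17.3% and 13.5% of all genes rose. On the TPM scale the controls had 53.6 and 56.4 TPM. The YAPi_TAZi libraries lay on both sides of them, at 43.6 and 65.9 TPM, and TEADi went the other way, at 28.4 and 51.3 TPM. With the controls of both sets the TEADi value was -0.19.

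When each set 1 knockdown was compared with the other set 1 knockdowns instead, each group then holding both kinds of replicate, PTX3 with YAPi_TAZi was the only call left among the 10 genes. PTX3 stood at 4.27 and 3.46 TPM there, below the 6 other knockdown libraries (6.45 to 31.2 TPM), with a log2 fold change of -2.06 ± 0.48. The controls of the sets themselves differed in the same line, with PTX3 at 136 and 127 TPM in set 1 and 12.9 and 4.76 TPM in set 2, and SLPI at 13.3 and 15.7 TPM in set 1 and 0 in set 2.

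**Figure D4:**
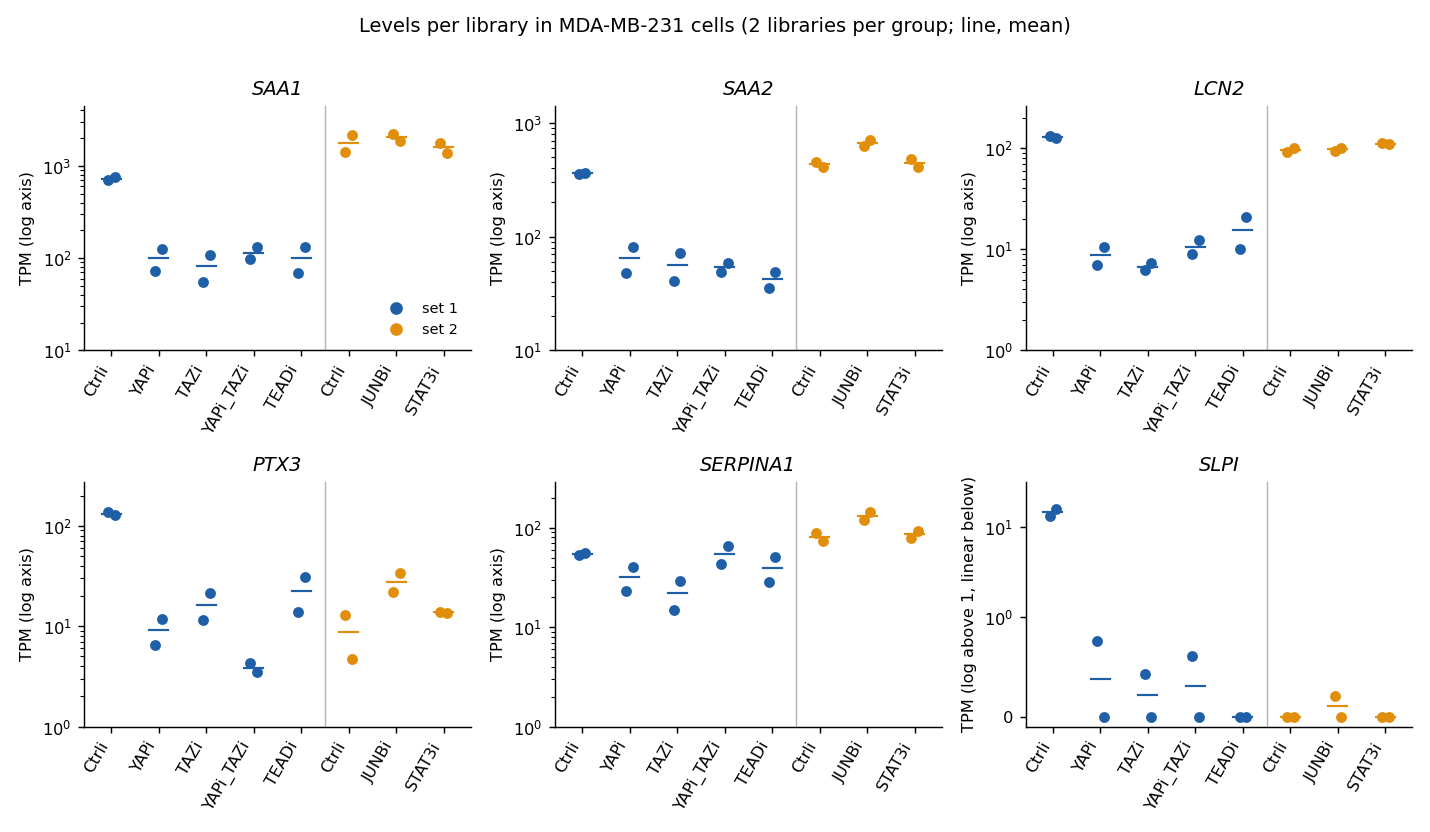
Levels in MDA-MB-231 of 6 of the genes, in TPM on log axes (linear below 1 TPM for SLPI), by siRNA; blue points are set 1, orange points set 2, and lines the mean of 2 libraries. The set 1 controls stand above all 8 knockdown libraries for SAA1, SAA2, LCN2, PTX3 and SLPI, while in set 2 the JUNBi libraries lie above the controls for SAA2, PTX3 and SERPINA1.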

How the data were processed

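RNA was sequenced from 36 libraries. The labels name 1 ribosome-profiling library kit for all of them, although the share of RNAs without a poly(A) tail falls into separate ranges. The authors trimmed the reads, aligned them with STAR to the GENCODE v30 transcriptome (hg38 per the labels) and ran RSEM, which divides reads that match several genes among them. Versions are not given in the sources used here. The authors deposited expected counts, the estimated reads per gene, and TPM, scaled to gene length and to the library. Of 61471 identifiers, 60725 Ensembl genes were kept and the others, at most 0.109% of counts, were left out. Symbols were found for 56558 (93.1%).

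Expected counts were rounded and tested with DESeq2 1.42.0 (R 4.3.3) in each comparison separately, with its default filters and Benjamini-Hochberg adjustment over all genes, and genes with an adjusted p under 0.01 were called. Interaction terms compared effects between treatments or lines. Medians of fold changes leave out genes whose mean count was under 10. Alternatives were edgeR 4.0.16 (quasi-likelihood), TMM size factors, a mean count filter of 10, leaving out each library, a replicate block and other set 1 references. The DESeq2 script was tested on simulated data. Coordinates are from GENCODE v44 (GRCh38). Exact conditional intervals (95%) and the floor of 3 counts cover counting error only. Correlations use log2(TPM + 1) group means of genes reaching 5 TPM. The members and gene lists were chosen with earlier results of these data known. All members were named, the list genes called in TAM were named up to 6 per list and comparison in order of mean count, and the 3 most correlated genes were named for each member.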

Additional observations from a re-analysis of the deposited data

Results flagged for a closer look

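Each of the following is a difference between effects under the same siRNA, taken from a DESeq2 interaction term called over all genes. Between TAM and ETH in ER-Src cells, the effect of TAZi on HP was higher in TAM by 5.17 ± 1.03 (log2, SE). The effect of STAT3i was lower in TAM by -2.06 ± 0.27 for SAA2, -1.09 ± 0.26 for SAA1, -2.88 ± 0.75 for SERPINA3 and -2.87 ± 0.23 for SERPINA1. The effect of JUNBi on SERPINA3 was lower in TAM by -1.12 ± 0.26. With edgeR only the SERPINA1 term among these 6 was called. Leaving out single libraries, the call was lost for HP in 3 of 8 cases, SAA1 in 4, SERPINA3 with STAT3i in 5 and SERPINA3 with JUNBi in 6, with the direction kept.

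Between MDA-MB-231 set 2 and ER-Src in TAM, the effect of JUNBi in set 2 was lower for SAA2 (-1.31 ± 0.21) and LCN2 (-1.89 ± 0.47) and higher for SERPINA1 (1.36 ± 0.21), and 0 of the 3 were called with edgeR. The LCN2 call was lost in 7 of 8 cases when 1 library was left out. The effect of STAT3i in set 2 was higher for SAA2 (2.58 ± 0.27) and SERPINA1 (3.66 ± 0.24), and both were called with edgeR. Line and library type cannot be told apart here.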

How the results depend on the processing

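Of 74 called member values, 70 were still called with TMM size factors, 72 with the mean count filter and 57 with edgeR, and 0 turned direction. With edgeR the number of the 10 genes called was 0 against 4 for JUNBi in ETH, 0 against 1 for the TAZi interaction, 1 against 4 for the STAT3i interaction, 0 against 1 for the JUNBi interaction, 0 against 1 for JUNBi in set 2 and 0 against 3 for the JUNBi line interaction. TMM called 0 for the TAZi and JUNBi interactions, and the count filter called 1 against 0 for STAT3i in ETH. The causes were not tested.

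In set 1, the controls of both sets together left 2, 2, 2 and 3 calls for YAPi, TAZi, YAPi_TAZi and TEADi (4, 5, 5 and 6 otherwise), and SERPINA1 with TEADi turned to -0.19. Against the other set 1 knockdowns 0, 0, 1 and 0 calls were left, and values turned positive for SAA1 and SAA2 with YAPi (0.04 and 0.35), SAA2 and PTX3 with TAZi (0.08 and 0.43), SAA1 with YAPi_TAZi (0.23), and LCN2, SAA1 and PTX3 with TEADi (0.88, 0.08 and 1.22).

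The labels do not say what a replicate number marks, and with 2 pairs in a comparison it was not taken to pair samples. Deviations of same-numbered libraries had r of -0.06 to 0.432, over 0.1 in 6 of 13 comparisons, all 4 siRNAs in ETH among them. With the replicate block 60 of 68 called values were still called, and TAZi in ETH called 0 against 3. No paired analysis was possible because the set 2 controls carry other replicate numbers than the knockdowns, for the set 2 comparisons.

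Leaving out 1 library, where the lone sample left is assumed to vary like the other group, kept 248 of 340 called values and gave 6 to 7 calls for TAM against ETH. In TAM it gave 1 to 6 for YAPi, 5 to 6 for TAZi, 5 for STAT3i and 6 to 7 for JUNBi, and in ETH 1 to 3, 0 to 1, 0 to 1 and 1 to 5. The interactions gave 0 to 1 for YAPi, 0 to 2 for TAZi, 2 to 4 for STAT3i and 0 to 1 for JUNBi. Set 1 gave 3 to 4 for YAPi, 4 for TAZi, 5 for YAPi_TAZi and 2 to 5 for TEADi. Set 2 gave 0 to 1 for JUNBi and 0 for STAT3i, and the line interactions 2 to 6 and 2 to 3.

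Over all genes, edgeR called 195 against 470 for TAZi in TAM, 491 against 739 for TAZi in ETH, 0 against 37 for STAT3i in ETH, 1 against 421 for JUNBi in ETH, and 15, 5, 56 and 0 against 78, 71, 221 and 46 for the YAPi, TAZi, STAT3i and JUNBi interactions. It called 0 against 272 for JUNBi and 0 against 10 for STAT3i in set 2, and 10 against 134 and 64 against 207 for the JUNBi and STAT3i line interactions. TMM called 17 against 37 for STAT3i in ETH. The block called 619 against 976 for TAM against ETH, 770, 177 and 655 against 1550, 470 and 1167 for YAPi, TAZi and STAT3i in TAM, 1122, 404 and 11 against 1713, 739 and 37 for the same siRNAs in ETH, 100 against 46 for the JUNBi interaction, and 2555, 2743 and 2955 against 4049, 5822 and 4682 for YAPi, TAZi and TEADi in set 1. The controls of both sets called 1222, 1183, 1651 and 1502, and the other knockdowns as reference 21, 34, 108 and 198, for YAPi, TAZi, YAPi_TAZi and TEADi, against 4049, 5822, 6792 and 4682.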
